A study of Mus musculus with 10 samples.

Results

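The interferon-stimulated genes described here are 43 mouse genes given as a list of symbols: antiviral effectors, RNA and DNA sensors and the transcription factors that control them. All 43 were found among the 26434 genes of the RNA tables. They were followed from naive B cells to plasma cells. Levels are TPM from RNA sequencing, a share of all transcripts that allows for transcript length, summed over the transcripts of each gene.

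Type I interferons bind a receptor of IFNAR1 and IFNAR2 that works through the kinases JAK1 and TYK2. These kinases lead to the transcription factor complex ISGF3, which holds STAT2 and IRF9. ISGF3 binds the interferon-stimulated response element (ISRE) at the promoters of the induced genes, while interferon gamma signalling acts mainly through the gamma-activated site (GAS). B cells express these receptors, and many interferon-stimulated genes keep a basal level without infection.

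The study joined RNA, open chromatin, chromatin contact and histone mark data, and its title concerns the unfolded protein response in plasma cells. Both RNA libraries came from wild-type C57BL/6 mice, with 1 library for each cell type, and the labels do not say how many mice gave each. The naive B cells were sorted directly from spleen as CD23+ IgD+ cells. The labels of the plasma cells conflict. The source field names cells activated in culture and then sorted, whereas the extraction protocol names a bone marrow sort of CD138+ cells negative for B220, IgD, CD4, CD8, Gr1 and Ter119. No reading was assumed. C57BL/6 mice carry a defective Mx1 gene, so its transcript here does not stand for a working protein.

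The libraries held 37.0 M and 43.5 M estimated counts in naive and plasma cells. Of 8 plasma cell defining genes, 7 reached 5 TPM in 1 library and 6 of these were higher in plasma cells. Prdm1, the regulator of plasma cell identity, stood at 2.29 TPM in naive and 249 TPM in plasma cells. Sdc1, which encodes the sort marker CD138, stood at 11.1 TPM in naive and 5.38 TPM in plasma cells. Markers of other cell types were mostly higher in the naive library. The 14 macrophage and monocyte markers summed to 359 TPM in naive and 16.2 TPM in plasma cells, where C1qa, C1qb, C1qc, Marco and Vcam1 were listed at 0. The 12 T and NK cell markers summed to 105 and 3.70 TPM, the 9 neutrophil markers to 31.2 and 1.04 TPM and the 5 matched erythroid markers to 45.9 and 0.18 TPM. The 9 dendritic cell markers summed to 13.3 and 35.3 TPM. Of these, Flt3 alone reached 5 TPM, at 2.50 and 30.2 TPM, and the plasmacytoid marker Siglech stood at 1.33 and 0.0401 TPM. The part of these cells in the results below was not tested. In bulk RNA, fewer cells of a type and less RNA per cell cannot be told apart.

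Isg15, Isg20, Ifi27l2a, Oasl1 and Bst2 were far higher in plasma cells, while Ifit3, Ifit2, Oas2, Mx1 and Cmpk2 were much lower there, all below 3 TPM. The ratio used here is log2 of plasma over naive TPM after adding 1 TPM to each, which understates the change of low genes. It was centred by subtracting -0.99, the median over the 7488 genes that reached 5 TPM in naive and in plasma cells alike. A gene was called higher at a centred ratio of at least 1 and lower at -1 or less, a fold of 2, if it reached 5 TPM in 1 library. Of the 43 genes 39 reached that level. Of these, 11 (28.2%) were called higher, against 16.0% of all 10191 genes at that level, and 5 (12.8%) were called lower, against 22.0% of all. Another 23 lay between. Without centring 5 (12.8%) were higher, against 7.75% of all genes, and 17 (43.6%) were lower, against 57.6% of all. Calls in both directions were thus also what all genes showed. The 5 still called higher were Isg20, Isg15, Ifi27l2a, Oasl1 and Bst2, while Zbp1, Oas1a, Usp18, Ifitm3, Irf7 and Ifitm2 had uncentred ratios of 0.18 to 0.76 and were called only after centring. The 43 genes were chosen with earlier results of these data known, so their shares are no independent comparison with all genes. In a wider list of other interferon-stimulated genes, described below, 11.3% were called higher and 30.2% lower. With 1 library for each cell type there is no replicate check and no test. The intervals below are exact 95% Clopper-Pearson intervals of the centred count ratio. They have no pseudocount, cover counting error only, and can lie apart from the TPM ratio where levels are low or transcripts of other lengths take over.

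**Figure D1:**
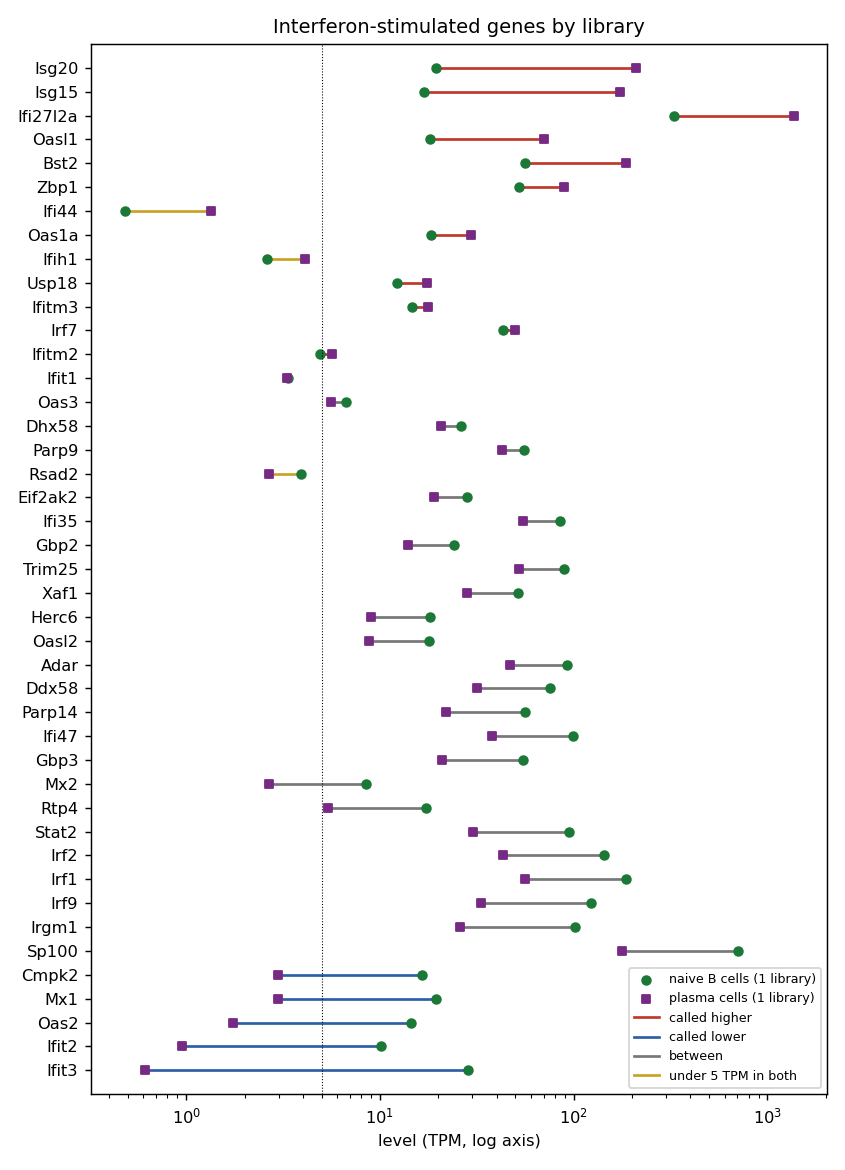
Level of each of the 43 genes in naive B cells (circles) and plasma cells (squares), 1 library each, in TPM on a log axis, ordered by centred ratio and joined by a line coloured by call, with a dotted line at 5 TPM. The top genes lie up to 209 TPM in plasma cells, or 1370 TPM for Ifi27l2a, and the bottom 5 lie below 3 TPM there.

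The median centred ratio over the 43 genes was 0.23, beside -0.13 over the 12915 genes with at least 1 TPM in 1 library. Without centring the members' median was -0.76. In all, 26 ratios were above 0 and 17 below. The summed level was 2846 TPM in naive and 3030 TPM in plasma cells, or 0.285% and 0.303% of all TPM. These sums are not centred. As a share of all TPM the sum thus hardly differed while its makeup did. The median gene had an uncentred ratio of -0.99, so relative to that gene the sum was higher in plasma cells. Ifi27l2a gave 11.5% of the naive sum and 45.3% of the plasma sum. Sp100 gave 24.8% and 5.9%. Without these genes the sum was 1812 TPM in naive and 1478 TPM in plasma cells. The 11 genes called higher summed to 584 and 2220 TPM, and the 5 called lower to 88.8 and 9.2 TPM.

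Promoter sequences are shown first, because genes with the same element lay at both ends of the list. RefSeq promoters (build GRCm38.p6, from 250 bases before to 50 after the annotated start) were at hand for 33 of the 43 genes. The ISRE letters searched were GAAANNGAAA on both strands. Some genes have several windows, 42 in all, and a gene was counted if any window held the letters. They occurred in 17 of the 33 genes (51.5%) and in 3.99% of the 27025 genes of the promoter table. By call, they occurred in 5 of 8 genes called higher, 8 of 18 between, 1 of 3 called lower and 3 of 4 under 5 TPM. The 5 windows below are from the promoters with at least 2 ISREs wholly before the start, from genes called higher, called lower or near the floor. They run in the direction of the gene, with the ISRE bases in capitals, and a run of capitals longer than 10 bases holds overlapping matches. Isg15 lies on the minus strand (chr4:156200855-156200916), with 3 ISREs that begin 78 to 66 bases before the start. Bst2 lies on the minus strand (chr8:71537567-71537622), with 2. Oas1a lies on the minus strand (chr5:120907526-120907565), with 2. Ifit3 lies on the plus strand (chr19:34583353-34583436), with 2. Ifit1 lies on the plus strand (chr19:34640765-34640833), with 2.
Isg15: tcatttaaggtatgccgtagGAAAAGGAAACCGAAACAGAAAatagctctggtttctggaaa
Bst2: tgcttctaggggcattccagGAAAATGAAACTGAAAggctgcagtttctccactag
Oas1a: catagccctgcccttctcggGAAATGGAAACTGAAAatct
Ifit3: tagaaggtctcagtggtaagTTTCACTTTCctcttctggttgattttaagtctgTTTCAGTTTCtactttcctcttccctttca
Ifit1: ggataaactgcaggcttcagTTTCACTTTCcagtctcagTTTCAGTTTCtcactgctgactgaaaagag
Of these genes, Isg15, Bst2 and Oas1a were called higher, Ifit3 was called lower, and Ifit1 was under 5 TPM in both libraries. The ISRE letters were not in the windows of Isg20, Oasl1 and Irf7, which were called higher, nor in those of Ifit2 and Cmpk2, which were called lower. GAS letters, TTCNNNGAA, occurred in 10 of the 33 genes (30.3%) and in 9.55% of all genes, with 4 of 8 among the genes called higher and 1 of 3 among those called lower. In Bst2 and Ifitm3 GAS letters overlapped an ISRE. A match is only a description of the letters in the window.

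The ISG15 system attaches the ubiquitin-like protein ISG15 to other proteins. Isg15 itself stood at 16.8 TPM in naive and 173 TPM in plasma cells, a centred ratio of 4.27, or 19.3-fold (count interval 4.23 to 4.60). Usp18, the protease that removes ISG15 and also restrains the interferon receptor, stood at 12.3 and 17.5 TPM, a centred ratio of 1.47 and an uncentred ratio of 0.48. The ligases were not called: Herc6, the main ISG15 ligase in mouse, stood at 18.1 and 9.03 TPM (0.06), and Trim25, a ligase that activates RIG-I, at 88.7 and 51.9 TPM (0.23). The genes that load ISG15 lie outside the 43 and were named after their values were seen. Uba7, its activating enzyme, stood at 139 and 19.7 TPM, a ratio of -1.77 that was called lower. Ube2l6, its conjugating enzyme, stood at 41.4 and 11.9 TPM (-0.73).

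The IFIT proteins bind viral RNA and form complexes with each other. Ifit3 stood at 28.5 TPM in naive and 0.611 TPM in plasma cells, from 1016 and 41 estimated counts, and was the lowest member at -3.21, or 9.25-fold lower (interval -4.98 to -4.04). Ifit2 stood at 10.1 and 0.951 TPM, a ratio of -1.52 (interval -2.61 to -2.08). Ifit1 was low throughout, at 3.36 and 3.31 TPM, with a centred ratio of 0.97. The family thus did not move as a unit. Ifit3 shares 61.8% of its 31-base words with its near copy Ifit3b, listed under an older symbol, so reads could be split between them. Both together gave a ratio of -3.38. Another relative, Ifit1bl1, from a wider list of interferon-stimulated genes, stood at 21.2 and 0.374 TPM (-3.02).

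The OAS enzymes make 2'-5' oligoadenylates that activate RNase L, whereas the related protein OASL1 lacks this activity. Oasl1, which in mouse restrains translation of Irf7, stood at 18.1 TPM in naive and 70.2 TPM in plasma cells, a ratio of 2.89 (interval 2.90 to 3.12). Oas1a stood at 18.4 and 29.6 TPM (1.64, interval 1.63 to 1.91). Oas2 went the other way, at 14.4 and 1.75 TPM (-1.50, interval -2.13 to -1.74). These 3 genes had similar naive levels and went in both directions. Oas3, the long form, stood at 6.68 and 5.58 TPM (0.76), and Oasl2 at 18.0 and 8.83 TPM (0.04). Oas1a shares 68.8% of its 31-base words with another gene, mostly Oas1g, which stood under 0.5 TPM in both libraries, and their sum gave 1.63. The further copies Oas1b and Oas1c, from the wider list, were called lower at -1.14 and -1.04.

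Of the 11 other antiviral effectors 10 reached 5 TPM, with 4 called higher and 2 lower, beside 16.0% and 22.0% of all genes. Isg20, an RNA exonuclease, stood at 19.4 TPM in naive and 209 TPM in plasma cells and was the highest member at 4.35, or 20.3-fold (interval 4.23 to 4.53). Bst2, or tetherin, which holds budding virus at the cell surface, stood at 55.8 and 186 TPM (2.70, interval 2.69 to 2.90). Both genes were several-fold higher with or without centring, at 3.36 and 1.72 uncentred. Ifitm3, a membrane protein that blocks virus entry, stood at 14.7 and 17.8 TPM (1.25), and its neighbour Ifitm2 at 4.89 and 5.68 TPM (1.17). Ifitm2 rested on 62 and 136 estimated counts, its interval reached from 0.83 to 1.73, and it shares 55.5% of its 31-base words with other genes. The largest part of these words, 38.1% of all those of Ifitm2, was shared with Gm45717. Ifitm2 summed with Ifitm3 gave 1.24, and summed with Ifitm1, which stood at 3.11 and 0.465 TPM, gave 0.65.

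At the other end of this group, Mx1, a dynamin-like GTPase against influenza viruses, stood at 19.4 TPM in naive and 2.96 TPM in plasma cells (-1.38, interval -1.93 to -1.55). Its paralog Mx2 stood at 8.44 and 2.69 TPM (-0.37), and both together gave -1.13. Cmpk2, a mitochondrial nucleotide kinase, stood at 16.4 and 2.97 TPM (-1.14, interval -1.58 to -1.23). Its direct neighbour Rsad2, the radical enzyme viperin, was under 5 TPM in both, at 3.91 and 2.68 TPM (0.57). Not called were Eif2ak2, the kinase PKR, at 28.1 and 19.1 TPM (0.45), Adar, an RNA-editing enzyme, at 92.5 and 47.1 TPM (0.03), and Rtp4, at 17.3 and 5.38 TPM (-0.53).

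**Figure D2:**
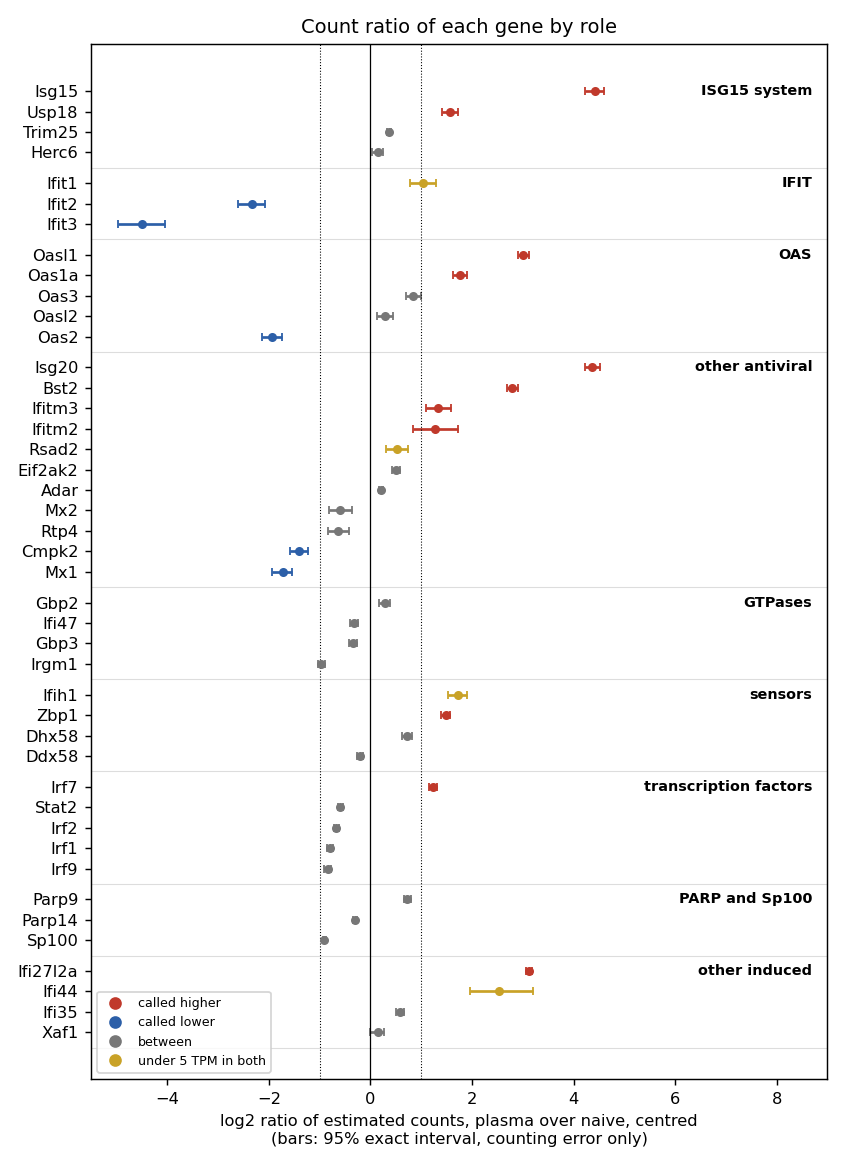
Centred log2 ratio of estimated counts, plasma over naive, for each gene grouped by role, coloured by the call made on TPM, with bars for the exact 95% interval (counting error only) and dotted lines at -1 and 1. Within the OAS and other antiviral groups genes lie on both sides, from Oas2 and Mx1 on the left to Oasl1 and Isg20 on the right.

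The sensors detect viral nucleic acid in the cytosol. Zbp1, a sensor of Z-form nucleic acid, stood at 52.3 TPM in naive and 89.1 TPM in plasma cells (1.74, interval 1.39 to 1.56). Dhx58, or LGP2, stood at 26.2 and 20.7 TPM (0.66), and Ddx58, or RIG-I, at 75.7 and 31.6 TPM (-0.25). Zbp1 was the sensor called higher, and Ifih1, or MDA5, stayed under 5 TPM at 2.61 and 4.12 TPM (1.49).

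Of the 5 transcription factors, Irf7 was called higher and the others lay below the median gene. Irf7, which drives interferon alpha genes, stood at 43.1 TPM in naive and 49.5 TPM in plasma cells (1.18, interval 1.15 to 1.32). Its uncentred ratio was only 0.20. Stat2 stood at 95.1 and 30.3 TPM (-0.63) and Irf9 at 123 and 33.2 TPM (-0.87). Irf1, an activator, stood at 187 and 56.1 TPM (-0.73), and Irf2, which can oppose it, at 143 and 43.4 TPM (-0.71). The mRNAs of both ISGF3 subunits on the list were thus at a lower TPM in plasma cells, by somewhat more than the median gene, without reaching the call.

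The GTPases act on the vacuoles of intracellular microbes and none of the 4 was called. Irgm1 stood at 102 and 26.0 TPM (-0.95), Ifi47 at 99.1 and 37.9 TPM (-0.37), Gbp3 at 55.0 and 20.9 TPM (-0.37) and Gbp2 at 24.0 and 14.0 TPM (0.25). Parp14 and Parp9, enzymes of the ADP-ribosylation family, stood at 56.2 and 21.9 TPM (-0.34) and at 55.5 and 42.7 TPM (0.62). Sp100, a nuclear body protein, had the highest naive level of the list, at 707 TPM, and stood at 178 TPM in plasma cells. Its centred ratio lay just short of the call for lower. Just outside the call for higher was Oas3 at 0.76, and just inside it was Ifitm2 at 1.17.

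Of the remaining induced genes, Ifi27l2a, which encodes a small mitochondrial protein, was the most abundant member in plasma cells. It stood at 328 TPM in naive and 1370 TPM in plasma cells (3.05, interval 3.07 to 3.18). Ifi35 stood at 84.5 and 54.9 TPM (0.37) and Xaf1, a pro-apoptotic protein, at 51.8 and 28.0 TPM (0.13). Ifi44 was barely present, at 0.481 and 1.34 TPM.

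Several members lie beside each other in the genome, and some neighbours had centred ratios of opposite sign. In the order of RefSeq protein-coding genes, Oas2 (-1.50) and Oas3 (0.76) on chromosome 5 have no such gene between them, nor do Oasl2 (0.04) and Oasl1 (2.89). The same holds for Rsad2 (0.57) and Cmpk2 (-1.14) on chromosome 12. On chromosome 19, Ifit2 (-1.52) and Ifit3 (-3.21) are adjacent and were both called lower, whereas Ifit1, with 3 genes between it and Ifit3, had a ratio of 0.97. On chromosome 7, Ifitm2 (1.17) and Ifitm3 (1.25) were both called higher. None of these neighbours paired a gene called higher with a gene called lower. Rsad2 and Ifit1 were under 5 TPM in both libraries. Without centring the signs were shared in Oas2 and Oas3 (-2.49 and -0.22) and in Rsad2 and Cmpk2 (-0.41 and -2.13). Ifit1 then stood at -0.02. Oasl2 and Oasl1 had opposite signs only without centring, at -0.95 and 1.9.

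The most abundant transcript was the same in both libraries in 39 of the 43 genes, 15 of which have a single transcript. Zbp1 changed its makeup. The short transcript Zbp1-002, of 770 bases and 188 codons, stood at 17.9 TPM in naive and 54.5 TPM in plasma cells, or 34.3% and 61.2% of the gene. The long transcript Zbp1-001, of 1989 bases and 412 codons, stood at 34.3 and 34.6 TPM. In Gbp3, Gbp3-002 stood at 41.8 and 3.62 TPM and Gbp3-003 at 13.2 and 16.4 TPM, both with 621 codons. In Oas2, Oas2-001 stood at 11.2 and 0.749 TPM and Oas2-002 at 2.83 and 1.00 TPM. The low level of Oas2 in plasma cells was therefore carried mostly by Oas2-001. Isg20-003, with the same 182 codons as the main transcript Isg20-001, gave 13.0% of Isg20 in naive and 33.5% in plasma cells. In Adar, Adar-001, of 1179 codons and the longest coding region, gave 53.2% and 66.2%. Such splits are estimates, since similar transcripts share reads.

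The ratio moved with transcript length, in the list and in all genes. The most abundant transcript over both libraries together had a median of 770 bases in the genes called higher, 2516 in those between and 3198 in those called lower. The 770 bases are those of Zbp1-002, which places Zbp1 under 1000 bases. In the naive library Zbp1-001, of 1989 bases, was the more abundant. Over all genes the same medians were 1641, 2490 and 2810 bases. Under 1000 bases 6 of 7 members were called higher, with a median ratio of 1.74 beside 0.51 over 1516 genes. From 1000 to 1999 bases 4 of 8 were called higher and 1 lower, with a median of 0.78 beside 0.00 over 2555 genes. From 2000 bases 1 of 24 was called higher and 4 lower, with a median of -0.35 beside -0.43 over 6120 genes. Over all lengths 16.0% of genes were called higher and 22.0% lower, and these shares were not counted within each length class. In an alternative chosen after seeing the data, each gene was centred within 1 of 20 length classes. With it 9 members were called higher and 4 lower, beside 14.8% and 20.7% of all genes. Isg20, Isg15, Oasl1 and Bst2 then stood at 4.06, 3.70, 2.85 and 2.25, and Ifit3 at -3.32. Oas3 joined the genes called higher, Ifitm3 and Ifitm2 dropped to 0.67 and 0.60, and Cmpk2 stood at -0.99. Ifi27l2a dropped to 0.83. Its class of up to 508 bases held 121 immunoglobulin genes among 375, and centred on the rest of that class Ifi27l2a stood at 2.06. The part of length in these ratios was not tested.

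**Figure D3:**
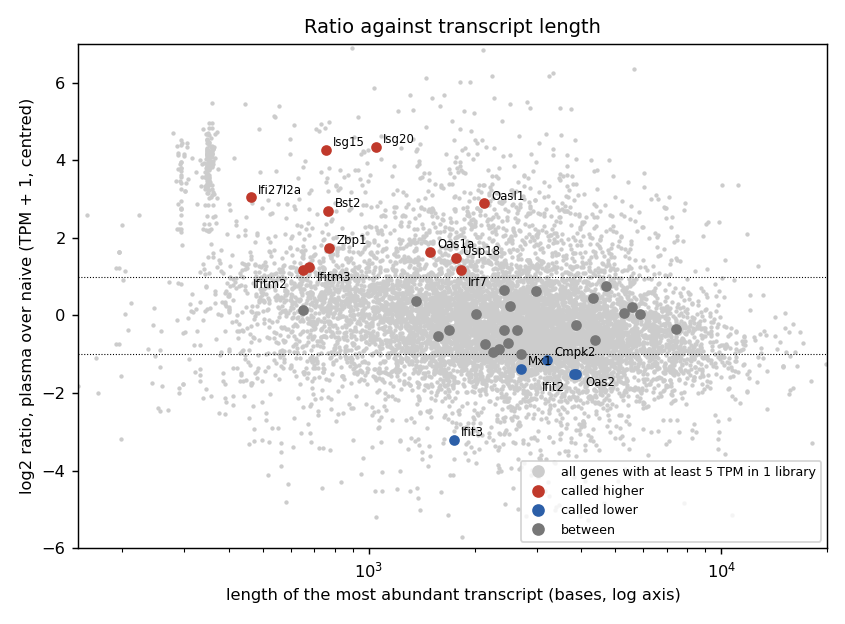
Centred log2 ratio on TPM against the length of the most abundant transcript in bases (log axis) for all genes with at least 5 TPM in 1 library (light grey) and for the 39 members at that level, coloured by call. Under 1000 bases the 7 members have a median ratio of 1.74, beside 0.51 over 1516 genes. Ifit3, Oas2, Ifit2, Mx1 and Cmpk2 lie at 1745 to 3869 bases.

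Of 11 genes in the list of receptors and JAK-STAT signalling, 10 reached 5 TPM in 1 library, none was called higher and 4 (40.0%) were called lower, beside 16.0% of all genes called higher and 22.0% called lower. The median ratio was -0.77, and without centring 7 (70.0%) were lower, beside 57.6% of all genes. Ifnar1 stood at 77.7 TPM in naive and 24.9 TPM in plasma cells (-0.61). Ifnar2 stood at 57.3 and 50.7 TPM (0.81), but its count interval, 0.02 to 0.19, lay well below that ratio. For interferon gamma, Ifngr1 stood at 86.2 and 7.45 TPM (-2.38) and Ifngr2 at 76.8 and 16.2 TPM (-1.19), and both were called lower. Il10rb, a subunit of the interferon lambda receptor, stood at 123 and 31.8 TPM (-0.93). Jak1, the kinase shared by these receptors, stood at 252 and 41.5 TPM (-1.59) and Jak2 at 53.5 and 12.0 TPM (-1.08). Tyk2 stood at 44.4 and 25.6 TPM (0.21) and Stat3 at 81.7 and 41.8 TPM (0.04). The interferon gamma receptor and Jak1 were thus lower than the median gene by more than the fold used for calls, while both type I receptor subunits were not called.

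The interferons themselves were nearly absent. Of 21 interferon genes none reached 5 TPM, all 21 were listed at 0 in plasma cells and 19 were listed at 0 in naive cells, where Ifng stood at 0.411 TPM and Ifnk at 0.063 TPM. Of the genes that induce interferon, 18 of 20 reached 5 TPM, with 1 (5.56%) called higher, 6 (33.3%) called lower and a median of -0.24. The shares of all genes were 16.0% and 22.0%, and without centring 1 was higher and 12 (66.7%) lower. Ticam1, the adaptor TRIF, stood at 16.5 and 36.6 TPM (2.09), and Tlr7, a sensor of RNA in endosomes, at 48.3 and 46.0 TPM (0.92). Tlr9, the sensor of CpG DNA, stood at 88.5 and 0.524 TPM (-4.89) and Traf3 at 50.7 and 7.28 TPM (-1.66). Of the 9 brakes on interferon signalling, 7 reached 5 TPM, with 1 called higher, 2 (28.6%) called lower and a median of -0.48. Without centring 1 was higher and 5 lower. Socs3, an inhibitor of JAK kinases, stood at 8.80 and 34.7 TPM (2.85), and the phosphatase gene Ptpn2 had a ratio of 0.08. Ptpn6, or SHP-1, stood at 944 and 63.7 TPM (-2.88), and Pias4 at 46.8 and 11.1 TPM (-1.0).

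In a wider list of 64 other interferon-stimulated genes, 53 reached 5 TPM in 1 library. Of these, 6 (11.3%) were called higher and 16 (30.2%) lower, with a median of -0.52, beside 16.0% of all genes called higher and 22.0% called lower. Without centring 4 (7.55%) were higher and 33 (62.3%) lower, beside 7.75% and 57.6% of all genes. Ly6a, the surface protein Sca-1, stood at 519 TPM in naive and 2460 TPM in plasma cells (3.23), and the chemokine gene Ccl5 at 11.1 and 36.9 TPM (2.63). Ifi203, a member of the family of nuclear DNA-binding p200 proteins, stood at 293 and 12.3 TPM (-3.48), below Ifit1bl1 at -3.02.

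**Figure D4:**
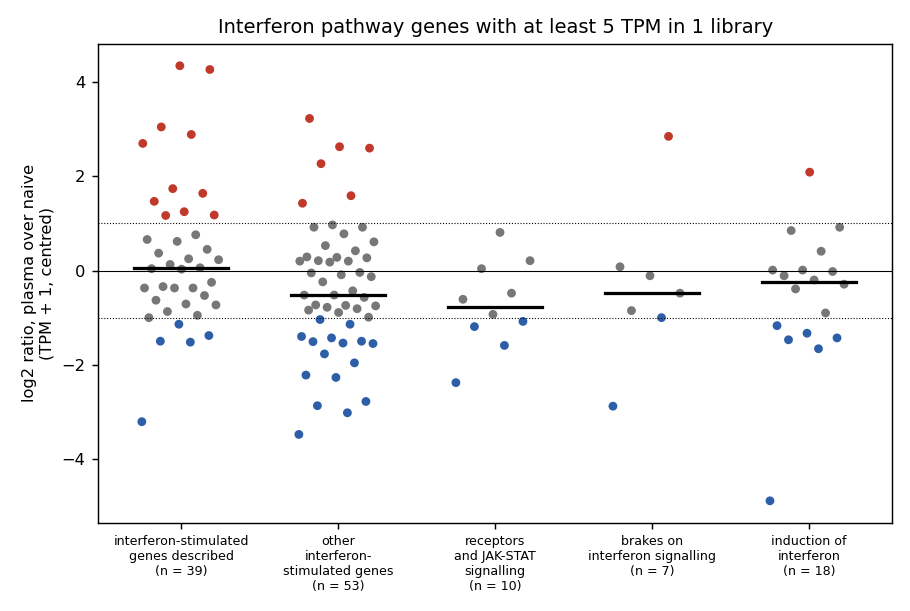
Centred log2 ratio on TPM of each gene with at least 5 TPM in 1 library, in the 39 members at that level and 4 lists of related genes, coloured by call (red higher, blue lower, grey between), with a bar at each median and dotted lines at -1 and 1. The medians of the 4 lists lie between -0.77 and -0.24, and that of the 39 members at 0.06.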

How the data were processed

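RNA of naive B cells and plasma cells was measured in 1 library each, grouped by title. Per the labels' protocols, polyadenylated RNA was reverse transcribed with random hexamers and strand was kept with dUTP. The authors ran kallisto, per the submitters' processing notes. For each transcript the deposited tables give its estimated count and its TPM, per the file headers. For kallisto, the version, strand setting and index were not given in the sources used here. Reads shared by near copies or antisense genes may be split between them.

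Transcripts (61112) were summed to 26434 genes by symbol. Estimated counts were rounded to whole numbers for intervals and factors. Count ratios were centred with an offset of -0.14. With 1 library for each group no test was run. Of 192 entries in the other gene lists, 188 were matched. All 43 members are named, and of each other list of interferon genes the 2 highest and 2 lowest ratios, with the receptor and JAK-STAT genes above 5 TPM, of which 1 is not reported here. Uba7, Ube2l6, Oas1b and Oas1c were named after their values were seen. The members and lists were chosen with earlier results of these data known. Shared sequence was counted as 31-base words in GENCODE M21 transcripts. Python 3.11.15, pandas 2.3.3, SciPy 1.17.1 and matplotlib 3.10.9 were used, with TMM factors from edgeR 4.0.16 and size factors from DESeq2 1.42.0 under R 4.3.3 as alternatives. The calls and intervals were tested on simulated data. Of 10 samples in the series 2 were used: ATAC peaks and contact maps are in mm9, for which no annotation was at hand, and ChIP-seq was not analysed here.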

Additional observations from a re-analysis of the deposited data

How the results depend on the processing

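Of 11 alternatives planned and 1 added after seeing the data, none turned the sign of any of the 16 called members. Counts that moved by over 1.5 times were these. Without centring 5 members were called higher and 17 lower, beside 7.75% and 57.6% of all genes, and the median was -0.76. At a fold of 3, 7 of 39 were called higher and 1 lower, beside 10% and 9.52% of all genes. At a fold of 1.5, 11 of 39 were lower, beside 36.5% of all genes. With a pseudocount of 5 TPM 2 were lower, Ifit3 and the newly called Sp100, beside 12.1% of all genes, and the median was 0.12. Ifit2, Oas2, Mx1 and Cmpk2 then lost their call, at -0.50, -0.68, -0.77 and -0.58. With a filter of 20 TPM 1 of 27 was lower, since 4 of the 5 genes called lower stood under 20 TPM in both libraries. Of all genes past that filter 22.7% were lower. The median was 0.59 with TMM factors, 0.62 with median-of-ratios size factors, 0.34 without immunoglobulin and mitochondrial genes and 0.36 centred within length classes. Over all genes that reached 5 TPM the median also moved, from -0.23 to 0.07, 0.1, -0.16 and -0.17 in the same order. The cause was not tested. TMM factors (1.28 and 0.783) gave 14 higher and 5 lower, and over all genes 22.0% higher and 16.7% lower. Size factors (1.19 and 0.84) gave 14 and 4, and over all genes 22.6% and 16.2%. Thinning the plasma library to the naive depth gave 11 and 6, with Sp100 joining those lower, beside 16% and 22.2% of all genes. Isg15, Isg20, Ifi27l2a, Oasl1, Bst2 and Ifit3 kept their calls in all planned settings. In the added setting, centred within length classes, Ifi27l2a lost its call at 0.83 while the others of these kept theirs. The ATAC peaks at members were not run. No paired analysis was possible because each group has 1 library. The differences between libraries cannot be told apart from those between cell types.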
